A study of Homo sapiens with 8 samples.

Results

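The comparison described here covers the first step of differentiation in solvent alone: the 2 libraries of differentiation D2 against the 2 libraries of D1, all with DMSO. They are 4 of the 8 libraries of the series and were chosen by their titles alone, with no use of measured values. All 27317 gene symbols of the count tables were considered, and 17268 had enough counts to be tested. The cells were Mel1, an established human embryonic stem cell (ESC) line, grown in E8 medium to 90% to 100% confluency. D1 cells were taken just before induction. D2 cells had spent 2 days in RPMI1640 with B27 lacking insulin and 5 µM CHIR99021, an inhibitor of glycogen synthase kinase 3 (GSK3). All 4 libraries carried solvent at under 0.1% DMSO. The other 4 libraries had the same times and media after exposure to 2 nM TCDD, a dioxin, at the stem cell stage. They serve here as a second pair of times, and also entered the filter on low counts, the scaling and the shared estimate of spread. The line is a single genotype, so the results describe 1 cell line.

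As background, blocking GSK3 stabilises beta-catenin, which joins TCF and LEF factors on DNA and switches on Wnt target genes. In pluripotent cells this signal, together with Nodal and FGF signals that the cells produce themselves, starts the programme of the primitive streak, the furrow of the embryo where cells leave the epiblast to form mesoderm and endoderm. Streak cells lower stem cell genes, loosen epithelial contacts and migrate, and the cardiac protocol takes them on to heart mesoderm at later stages that were not sampled here.

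Total counts ran from 37614004 to 42289654 in the 4 libraries. The 2 libraries of a time correlated at r = 0.999 across genes on a log2 scale, at D1 and at D2. The sources used here do not say whether they came from separate cultures, so the p-values cover the spread of these samples and nothing wider, and that spread may be technical. The effects of time, medium and inhibitor, and of any batch that separates D1 from D2, cannot be told apart. In bulk RNA, fewer cells with a transcript and less transcript per cell cannot be told apart either. Levels are CPM, counts scaled to library totals adjusted by TMM factors. They are not corrected for gene length, so they are compared within a gene and not between genes. A gene is said to rise or fall only where the adjusted p of the edgeR quasi-likelihood F test, by Benjamini and Hochberg over all 17268 genes, was under 0.05. Fold changes are from that fit and standard errors (SE) from its F statistic.

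At that threshold 10913 genes changed, 63.2% of those tested. They divided into 5617 higher at D2 (32.5%) and 5296 lower (30.7%). This near balance depended on the scaling, since library totals without composition factors gave 4381 higher and 6419 lower. A change of at least 2-fold was rarer (2338 genes, 13.5%) and leaned downwards. It was found for 690 genes in the upward direction (4.0%) and 1648 in the downward direction (9.54%). Among the largest changes the lean was reversed, with 121 genes at least 8-fold higher and 80 at least 8-fold lower, and 37 against 7 at 32-fold. In all, 18 genes went from under 0.5 CPM to 5 CPM or more, and 1 gene went the other way. The genes that rose at least 2-fold made up 0.903% of scaled counts at D1 and 2.82% at D2. The genes that fell at least 2-fold went from 2.95% to 1.12%. The libraries of the times did not overlap for 14238 genes (82.5%), so non-overlap by itself separates little here.

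**Figure D1:**
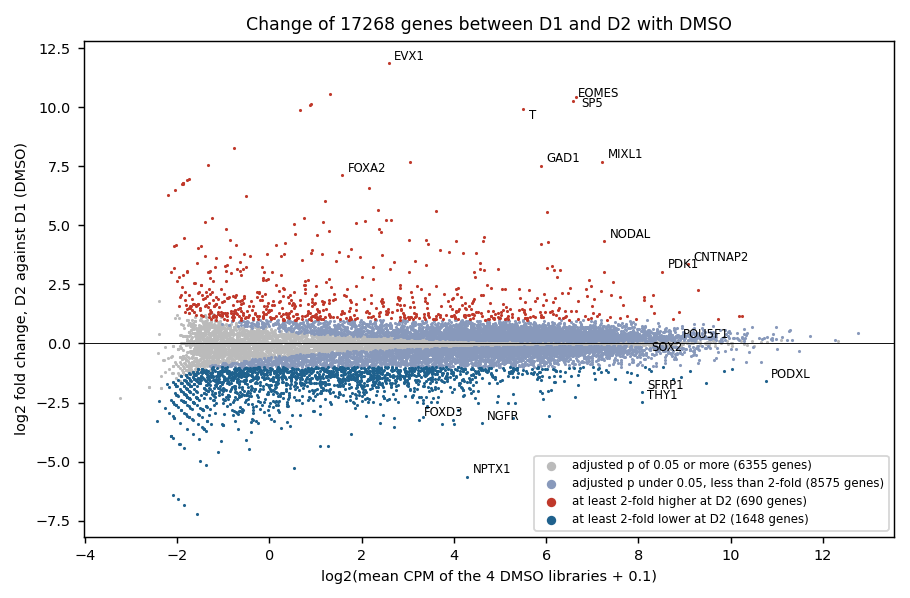
Log2 fold change of D2 against D1 with DMSO (vertical axis) against log2 of the mean CPM plus 0.1 over the 4 DMSO libraries (horizontal axis), 1 point per gene, coloured by adjusted p and size. The 690 red points reach much further from 0 than the 1648 dark blue points, and genes with no count at D1, such as EVX1, are drawn at their fitted value, which depends on the prior count.

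The stem cell state was lowered in part. Of 25 pluripotency transcription factors, all of them tested, 16 fell, 3 rose and 6 did not pass, with a median log2 fold change of -0.24 against 0.01 over all genes. FOXD3, a forkhead repressor of the epiblast and neural crest, had 16.3 and 17.5 CPM at D1 and 1.97 and 1.63 CPM at D2. It fell 9.44-fold (log2 change -3.24 ± 0.14, adjusted p = 7.12e-13), the largest fall of the list. PRDM14, which guards the pluripotent state, had 52.0 and 52.1 CPM at D1 and 20.5 and 19.8 CPM at D2, and MYCN, a MYC family factor of proliferating stem cells, had 93.8 and 79.4 CPM at D1 and 33.4 and 34.2 CPM at D2. Both libraries of D2 were below both of D1 for each. PRDM14 fell 2.59-fold and MYCN 2.56-fold. ETV5, an ETS factor that responds to FGF signalling, fell 2.63-fold, FOXO1 fell 2.38-fold, and DPPA2 and DPPA4, a pair of developmental chromatin factors, fell 2.12-fold and 1.58-fold.

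Other members held their level or went up. LIN28A, an RNA-binding protein that blocks let-7 maturation, had 1784 and 1683 CPM at D1 and 1773 and 1844 CPM at D2, and the libraries of the times overlapped (adjusted p = 0.282). SALL4 had a log2 change of 0.07 ± 0.04 (adjusted p = 0.163). ZIC2, a zinc finger factor of the primed epiblast, had 71.7 and 78.3 CPM at D1 and 192 and 179.7 CPM at D2 and rose 2.48-fold. KLF5 had 4.26 and 4.09 CPM at D1 and 16.98 and 18.3 CPM at D2 and rose 4.22-fold. Together with NANOG they were the 3 members that rose. Counts of NANOG and POU5F1 can include reads from processed copies.

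Among 28 tested markers of pluripotent cells outside transcription factors, 20 fell, 5 rose and 3 did not pass (median log2 change -0.62). THY1, the surface antigen CD90, had 479.8 and 435 CPM at D1 and 82.9 and 80.9 CPM at D2, a 5.59-fold fall (adjusted p = 5.25e-16). PODXL, the sialomucin that carries the TRA-1-60 and TRA-1-81 epitopes, had 2581 and 2653 CPM at D1 and 858 and 874 CPM at D2, a 3.02-fold fall. TERF1, a telomere-binding protein that is abundant in stem cells, had 346 and 334 CPM at D1 and 114 and 108 CPM at D2. For all 3 genes both D2 libraries lay well under both D1 libraries. The 5 that rose were ALPL, GAL, TERT, CD9 and HHLA1, with log2 changes between 0.20 and 0.55. EPCAM, the epithelial antigen, stayed at 493 and 506 CPM at D1 and 469 and 466 CPM at D2 (adjusted p = 0.0682), although alternative scalings placed its small fall past the threshold.

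The primitive streak factors had the highest median change of the gene lists. Of 30 factors listed, 27 were tested, of which 19 rose, 3 fell and 5 did not pass, and 17 rose at least 2-fold (median log2 change 3.25). The median is the same when genes with no count at D1 are set to their lowest possible fold. Members near 0 at D1 passed the filter on low counts only through libraries in which they were higher. A gene low in every library was left out, so the count and the median lean towards rises. T, MIXL1 and EOMES, the defining streak markers, stood between 0.0507 and 1.58 CPM in single libraries at D1 and between 88.3 and 308 CPM at D2. GSC, a homeobox factor of the organiser, had 0.203 and 0.229 CPM at D1 and 8.44 and 7.54 CPM at D2. It rose 36.5-fold (log2 change 5.19 ± 0.26, adjusted p = 9.64e-12). CDX2 and CDX1, caudal factors that specify the posterior body, had 0.101 and 0.0763 CPM at D1 and 7.89 and 9.49 CPM at D2, and 0.0761 and 0.0508 CPM at D1 and 3.99 and 4.65 CPM at D2. CDX2 rose 94.7-fold and CDX1 65.0-fold. All D2 libraries were above all D1 libraries for these genes.

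Other members rose too, some of them little. NKX1-2, a homeobox gene of the posterior growth zone, had 2.05 and 1.75 CPM at D1 and 24.5 and 30.5 CPM at D2, a 14.5-fold rise. TBX3 had 0.177 and 0.0508 CPM at D1 and 2.08 and 2.36 CPM at D2, and HHEX, an anterior endoderm factor, had 1.22 and 0.534 CPM at D1 and 8.11 and 8.64 CPM at D2. MESP1, the early cardiac mesoderm factor, was still close to its starting level, with 0.482 and 0.610 CPM at D1 and 1.01 and 1.07 CPM at D2. Its rise was 1.904-fold (adjusted p = 0.00424). TBX6 and CDX4 did not change detectably, with log2 changes of -0.22 ± 0.11 and 0.00 ± 0.17 (adjusted p = 0.0897 and 0.995), although TBX6 was called lower without composition scaling (-0.31). MSGN1, the paraxial mesoderm factor, had 0 counts in 3 of the 4 libraries and 4 in the other.

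Most tested definitive endoderm genes rose. Of 18 tested, 15 rose (83.3%), 1 fell and 2 did not pass (median log2 change 2.00). Over all genes 32.5% rose. Here too, members near 0 at D1 passed the filter only through libraries in which they were higher, so the count and the median lean towards rises. GATA4 had 0.228 and 0.356 CPM at D1 and 10.9 and 11.2 CPM at D2, a 37.6-fold rise. CER1, a secreted antagonist of Nodal, BMP and Wnt ligands, had 2.13 and 0.915 CPM at D1 and 32.9 and 29.3 CPM at D2, a 20.4-fold rise whose log2 value of 4.35 became 5.08 without D1 replicate 1. CXCR4, the chemokine receptor of migrating mesendoderm, had 0.482 and 0.280 CPM at D1 and 1.37 and 2.43 CPM at D2, and its D2 libraries were unequal but both above both of D1. SOX17, a defining marker of committed endoderm, had 0 counts in all 4 libraries, a result that allows up to 3 counts in each by counting error alone. HNF4A, AFP and TTR, genes of later endoderm, had at most 9 counts in a library. CPE was the member that fell, and 2 members were lower without composition scaling or without D2 replicate 2. GSC, FOXA2, GATA4, GATA6, HHEX and LHX1 are in the streak list as well, so the lists are not separate evidence.

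Genes of later mesoderm went both ways. Of 25 lateral and cardiac mesoderm genes, 16 were tested, of which 7 rose (43.8%) and 6 fell (37.5%). Over all genes the shares were 32.5% and 30.7%. The risen members were GATA4, GATA6, TBX3, HAS2, APLNR, APLN and TMEM88, the last 3 by 1.73, 0.48 and 0.65 on the log2 scale. GATA6 had 0.0761 and 0.0254 CPM at D1 and 0.819 and 1.10 CPM at D2. TNNT2, cardiac troponin T, fell 4.57-fold, from 14.0 ± 0.442 to 3.07 ± 0.286 CPM (SD, n = 2 each), and PDGFRA and KDR, receptors of cardiac progenitors, fell by 1.11 and 0.25 on the log2 scale. MYH6 had 10 counts or fewer, NKX2-5 2 or fewer and HAND1 6 or fewer in any library. Of 15 paraxial mesoderm genes, 7 rose and 4 fell, and the rises were in signals and caudal factors (FGF8, FGF17, WNT3A, CDX1, CDX2), the retinoic acid hydroxylase CYP26A1 and TCF15. LFNG, MESP2 and DLL3 of the segmentation machinery fell, as did DLL1, whose log2 change of -0.58 became -0.32 and lost the call without D1 replicate 2.

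Most HOX genes had too few counts to be tested. Of 26 listed, 4 were tested and all 4 were called higher. A member near 0 at D1 entered the test only through libraries in which it was higher, so this count leans towards rises. HOXB1, from the 3′ end of its cluster, had 0.710 and 0.686 CPM at D1 and 2.02 and 1.95 CPM at D2. HOXD1, which the filter removed, had 0 and 0 counts at D1 and 8 and 20 at D2. The count of 4 fell to 2 without D2 replicate 2, and was 2 with DESeq2.

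**Figure D2:**
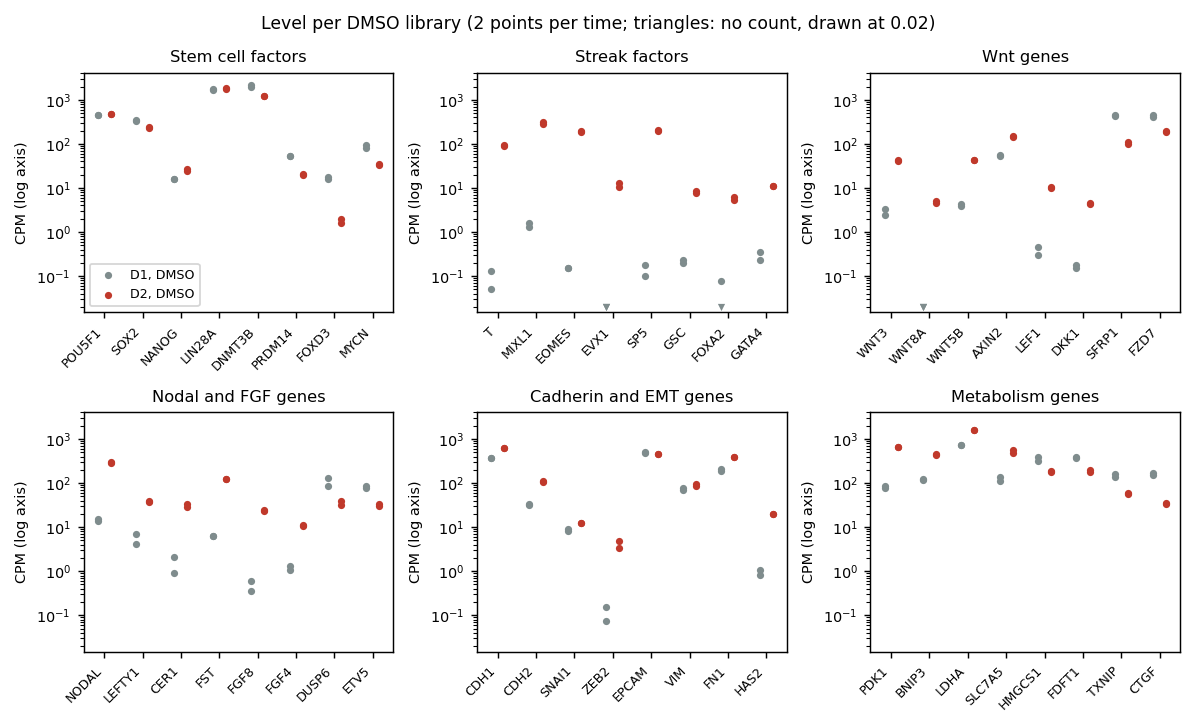
CPM of 48 genes in the 4 DMSO libraries (log axis, 1 point per library, grey D1 and red D2; triangles mark a library with no count, drawn at 0.02). T, MIXL1 and EOMES cross from at most 1.58 CPM to at least 88.3 CPM, stem cell factors such as PRDM14 and FOXD3 shift by less, and replicate points lie close together at both times.

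Summed levels of the lists for other cell types were lower at D2 or similar, and single members went both ways. The counts called stand beside shares of 32.5% higher and 30.7% lower over all genes. Neuroectoderm genes summed to between 766 and 790 CPM at D1 and 479 and 485 CPM at D2. Most of those counts, and most of that fall, were from NES, with a mean of 622 CPM at D1 and 330 CPM at D2. Of 16 tested, 2 rose and 9 fell, or 5 fell without D1 replicate 1. ZNF521 and TUBB3 were the members that rose, TUBB3 from a mean of 67.3 to 79.7 CPM. Of the defining markers, SOX1 and LHX2 had at most 7 counts in a library. PAX6 stood at 1.902 and 1.65 CPM at D1 and 1.28 and 1.46 CPM at D2 (adjusted p = 0.099). Neural crest genes summed to 112 to 116 CPM and then 52.4 to 53.6 CPM. Most of that fall was from NGFR and from FOXD3, which the pluripotency list also holds. Of 12 crest genes tested, 2 were higher (16.7%) and 4 lower (33.3%), the latter share near that over all genes. Without D1 replicate 2 or without D2 replicate 2, 1 of these rises remained, and DESeq2 called neither. Of the defining crest markers, SOX10 fell from a mean of 4.80 to 2.84 CPM, and TFAP2B had 0 counts throughout. NGFR, a neurotrophin receptor, had 46.4 and 41.9 CPM at D1 and 4.48 and 4.06 CPM at D2, a 10.4-fold fall. Trophoblast and amnion genes summed to 143 to 154 CPM and then 76.5 to 77.0 CPM, with 6 of 9 lower. The largest part of these sums was from TEAD3, with a mean of 74.4 CPM at D1 and 42.3 CPM at D2. GABRP, a GABA receptor subunit of amnion, had 22.2 and 26.0 CPM at D1 and 2.24 and 2.29 CPM at D2, and the keratin KRT7 had 8.95 and 9.94 CPM at D1 and 0.983 and 0.876 CPM at D2. CDX2, which the streak list also holds, was the member that rose.

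Blood and endothelial genes summed to 118 to 136 CPM at D1 and 102 to 107 CPM at D2, with most of those counts from KDR. Of 14 tested, 9 fell and 3 rose, and 5 fell without D2 replicate 2. PECAM1 and CDH5 had 3 or fewer counts in a library. Fibroblast genes summed to 874 to 919 CPM and then 314 to 330 CPM, with most of those counts from THY1 and COL1A1, which stem cells share, and DCN and LUM were at 0 counts. Of 8 tested, 5 fell and 2 rose, or 1 rose without D1 replicate 1 or D2 replicate 1. Primordial germ cell genes were near 459 to 507 CPM at both times, with 5 higher and 5 lower of 11 (45.5% each). Of their defining markers, DAZL rose from a mean of 14.5 to 26.2 CPM (log2 change 0.85). NANOS3 and DDX4 had at most 8 counts in a library. Naive pluripotency markers split 3 higher (25%) and 5 lower (41.7%) of 12, with KLF17 at 1 count or fewer. The shares over all genes were 32.5% and 30.7%. The part of any such cells in the changes below was not tested.

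**Figure D3:**
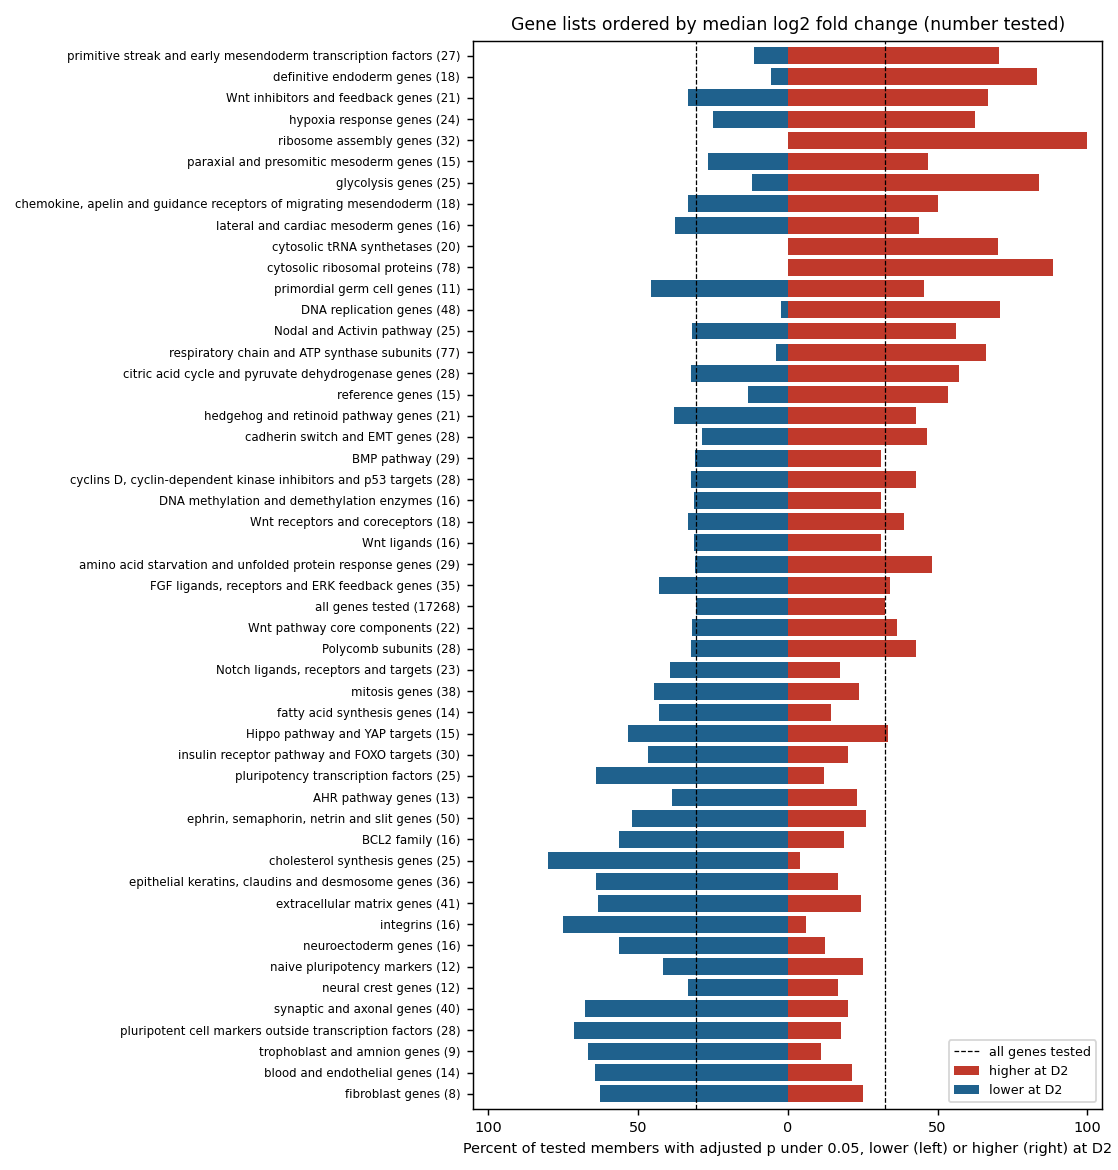
Percent of tested members of each gene list that were higher (right, red) or lower (left, blue) at D2 with adjusted p under 0.05, ordered by the list's median log2 change, with the number tested in parentheses. Dashed lines mark the 32.5% and 30.7% of all genes; streak, endoderm, ribosome assembly and glycolysis lists extend past the right line, and cholesterol, integrin and stem cell marker lists past the left one.

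Of 16 Wnt ligands and R-spondins tested, 5 rose, 5 fell and 6 did not pass, shares near those over all genes. In size they differed, and the smallest rise (WNT5B, log2 change 3.39) was larger than the largest fall (WNT4, -2.13). WNT3, needed for streak formation, had 3.30 and 2.49 CPM at D1 and 42.2 and 40.2 CPM at D2, a 14.2-fold rise (adjusted p = 6.89e-16). WNT5B, a ligand of the non-canonical branch, had 4.26 and 3.91 CPM at D1 and 42.0 and 43.7 CPM at D2, and WNT10B had 0.685 and 0.813 CPM at D1 and 13.8 and 17.04 CPM at D2. All their D2 libraries were above all D1 libraries. WNT3A had 0.0761 and 0.229 CPM at D1 and 1.88 and 2.38 CPM at D2, a 13.8-fold rise whose log2 value of 3.79 became 4.76 without D1 replicate 2. WNT8A, with no count at D1, was at least 126-fold higher. WNT4, WNT8B, WNT16, WNT7B and WNT5A were the 5 lower. Of these, 2 were lower without D1 replicate 1 or D1 replicate 2, 3 without D2 replicate 1 and 2 with DESeq2. WNT8B had 2.97 and 3.30 CPM at D1 and 0.928 and 0.9004 CPM at D2, and it and WNT4 kept the call in each of those fits.

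Receptors changed in both directions. FZD7, the main frizzled of stem cells, had 454 and 396 CPM at D1 and 190.0 and 192 CPM at D2, a 2.23-fold fall. FZD10 had 1.75 and 1.78 CPM at D1 and 14.1 and 14.4 CPM at D2, an 8.06-fold rise, and ROR2, a WNT5 receptor, rose 2.90-fold with 18.3 and 17.7 CPM at D1 and 49.7 and 54.6 CPM at D2. The D2 level of FZD10 was above both D1 libraries and that of FZD7 below both. The coreceptors LRP5 and LRP6 fell by 0.41 and 0.22, and PTK7, a planar polarity receptor, rose by 0.67 on the log2 scale. In all 7 of 18 receptors rose and 6 fell, near the shares over all genes.

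Inhibitors and feedback genes of the pathway all changed, 14 higher and 7 lower of 21 tested (median log2 change 0.78). Feedback genes inside the cell or at its surface rose in several cases. AXIN2, a scaffold of the beta-catenin destruction complex, had 57.3 and 54.0 CPM at D1 and 139 and 151 CPM at D2, a 2.61-fold rise. RNF43, a ligase that removes frizzled from the surface, had 9.18 and 9.12 CPM at D1 and 44.9 and 47.6 CPM at D2, and NKD1, which binds dishevelled, had 11.2 and 11.7 CPM at D1 and 53.6 and 60.3 CPM at D2. DACT1, another dishevelled partner, rose 18.8-fold, with 6.44 and 5.46 CPM at D1 and 115 and 108 CPM at D2. The libraries of the times were far apart for each of these genes. The membrane proteins KREMEN1 and KREMEN2, which bind DKK proteins, and SHISA2 fell by 0.38, 0.56 and 2.50 on the log2 scale. Secreted inhibitors went both ways. DKK1, which blocks the LRP coreceptors, had 0.177 and 0.153 CPM at D1 and 4.396 and 4.65 CPM at D2, a 26.9-fold rise, and NOTUM, an enzyme that strips the lipid from Wnt, rose 2.83-fold. SFRP1, a soluble frizzled-related trap abundant in stem cells, had 443 and 432 CPM at D1 and 111 and 99.1 CPM at D2, a 4.17-fold fall, and SFRP2 and SFRP5 fell by 0.71 and 1.03 on the log2 scale. NKD2, FRZB, WIF1 and ZNRF3, which rose by 0.28, 0.78, 0.48 and 0.19, each lost the call under at least 1 other setting.

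Core components moved less. Of 22 tested, 8 rose (36.4%), 7 fell (31.8%) and 7 did not pass, near the shares over all genes. CTNNB1, beta-catenin itself, had 559 and 554 CPM at D1 and 532 and 532 CPM at D2, and GSK3B had 113 and 117 CPM at D1 and 111 and 109.6 CPM at D2, with adjusted p of 0.189 and 0.231. The nuclear partners changed in both directions. LEF1 had 0.456 and 0.305 CPM at D1 and 9.80 and 10.3 CPM at D2, a 26.2-fold rise (adjusted p = 1.39e-13), and TCF7 had 15.1 and 14.1 CPM at D1 and 38.0 and 38.7 CPM at D2, a 2.63-fold rise. TCF7L2 and TCF7L1 fell by 0.92 and 0.47, and the corepressor TLE2 fell 6.48-fold, with 19.0 and 17.4 CPM at D1 and 2.89 and 2.73 CPM at D2. With upper quartile scaling 11 members were called lower in place of 7.

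The upstream sequences of 3 genes that rose are shown. GSK3 inhibition acts through TCF and LEF, whose preferred core letters can be searched for. The 3 are examples that each hold a match, so they do not show how common matches are among genes that rose. The windows span 250 to 51 bases before the first listed start of SP5, a zinc finger repressor, of MIXL1 and of DKK1, from RefSeq on GRCh38.p14, while the counts were made on hg19. Capitals mark CTTTGAT or CTTTGAA on either strand, so that a match on the other strand reads ATCAAAG or TTCAAAG. SP5 is at chr2:170715087-170715286, MIXL1 at chr1:226223414-226223613 and DKK1 at chr10:52314031-52314230, all on the plus strand.
SP5: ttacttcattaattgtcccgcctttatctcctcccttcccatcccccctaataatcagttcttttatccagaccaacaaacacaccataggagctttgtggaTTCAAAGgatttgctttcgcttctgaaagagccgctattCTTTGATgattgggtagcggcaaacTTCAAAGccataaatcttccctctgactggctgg
MIXL1: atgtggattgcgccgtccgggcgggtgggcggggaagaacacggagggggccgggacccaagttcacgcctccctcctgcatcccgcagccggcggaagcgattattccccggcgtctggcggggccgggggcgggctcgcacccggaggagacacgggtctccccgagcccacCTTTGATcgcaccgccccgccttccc
DKK1: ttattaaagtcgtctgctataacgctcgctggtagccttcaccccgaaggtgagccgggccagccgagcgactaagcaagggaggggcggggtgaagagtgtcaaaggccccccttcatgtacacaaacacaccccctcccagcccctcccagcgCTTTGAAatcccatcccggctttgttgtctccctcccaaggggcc
SP5 held 3 matches, starting 148, 109 and 84 bases before the start, MIXL1 held 1 at 76 bases and DKK1 held 1 at 95 bases. Of 27305 promoters of the table, 1386 (5.08%) held at least 1 match in the same window. A match describes letters and is not a measured binding site. SP5 stood at 0.101 and 0.178 CPM at D1 and 193 and 206 CPM at D2, a 1398-fold rise. Among genes tested, 13047 of 17268 had an entry, of which 419 (3.21%) held a match. Entries were present for 466 of the 690 genes that rose at least 2-fold, and with this coverage gene sets were not compared.

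NODAL, its partner ligand and its secreted inhibitors rose. Of 25 genes tested, 14 rose, 8 fell and 3 did not pass (median log2 change 0.19). NODAL, the TGF-beta ligand that patterns the streak, had 15.4 and 13.8 CPM at D1 and 279 and 303 CPM at D2. Its rise was 19.95-fold (log2 change 4.32 ± 0.07, adjusted p = 1.84e-18). GDF3, a partner ligand, had 6.21 and 4.96 CPM at D1 and 29.0 and 28.0 CPM at D2. Of the inhibitors, LEFTY1 had 6.92 and 4.09 CPM at D1 and 38.0 and 39.0 CPM at D2 and LEFTY2 6.11 and 4.93 CPM at D1 and 29.2 and 25.7 CPM at D2, and the pair are close copies whose reads could be divided by the counting. FST, follistatin, which binds activins, had 6.36 and 6.30 CPM at D1 and 124 and 127 CPM at D2, a 19.8-fold rise. The activin subunit genes INHBA and INHBE, the ligand TGFB1 and the feedback gene SKIL fell by 1.72, 0.82, 0.26 and 0.40, of which INHBA lost the call without D1 replicate 1 or D2 replicate 1 (log2 change of -1.04 without the latter), TGFB1 lost it without any one of the 4 libraries, and both lost it with DESeq2. The coreceptor TDGF1 fell by 0.47 ± 0.07 on the log2 scale and the receptors ACVR1C and TGFBR2 by 0.81 and 0.90, whereas ACVR1B and FOXH1, the DNA-binding partner of SMAD2, rose by 0.53 and 0.49.

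BMP genes were evenly divided, with 9 higher, 9 lower and 11 not called of 29, close to the shares over all genes. BMP4, the ligand most used to make mesoderm, stood at 11.9 and 12.7 CPM at D1 and 13.6 and 13.6 CPM at D2 (adjusted p = 0.173), and the target ID3 at 91.8 and 73.4 CPM at D1 and 89.3 and 86.0 CPM at D2 (adjusted p = 0.419). ID2, of the same family of targets, had 5.38 and 4.98 CPM at D1 and 43.6 and 46.4 CPM at D2, an 8.69-fold rise, and ID1 rose by 0.62 on the log2 scale. NOG, noggin, rose 3.97-fold from 0.292 to 1.15 CPM (log2 change 1.99, or 2.70 without D1 replicate 2), and BMP6 fell 2.86-fold.

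Several FGF ligands rose strongly while the receptors and some targets of the pathway fell. In all 12 of 35 genes rose (34.3%) and 15 fell (42.9%), against 32.5% and 30.7% over all genes. FGF8, a streak ligand, had 0.355 and 0.610 CPM at D1 and 24.0 and 23.6 CPM at D2, a 49.0-fold rise. FGF4 had 1.09 and 1.32 CPM at D1 and 11.2 and 10.4 CPM at D2, FGF18 0.558 and 0.915 CPM at D1 and 9.26 and 10.46 CPM at D2 and FGF17 0.0761 and 0.127 CPM at D1 and 1.67 and 2.12 CPM at D2. The ligands were above 1 CPM in both D2 libraries, and no D1 library reached a D2 value. FGF2, a ligand of the stem cell state, fell 1.85-fold, and the receptors FGFR1, FGFR2, FGFR3 and FGFR4 fell by 0.53, 0.36, 0.85 and 0.21 on the log2 scale. DUSP6, an ERK phosphatase that ERK induces, had 131 and 86.4 CPM at D1 and 39.2 and 31.6 CPM at D2, a 3.07-fold fall, and SPRY4, a feedback inhibitor, had 219.9 and 152 CPM at D1 and 100.2 and 96.1 CPM at D2. The D1 libraries of both genes were unequal, and both lay above both D2 libraries. SPRY2 and IL17RD, other feedback inhibitors, rose by 0.40 and 0.89, and the early response gene FOS by 0.97.

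**Figure D4:**
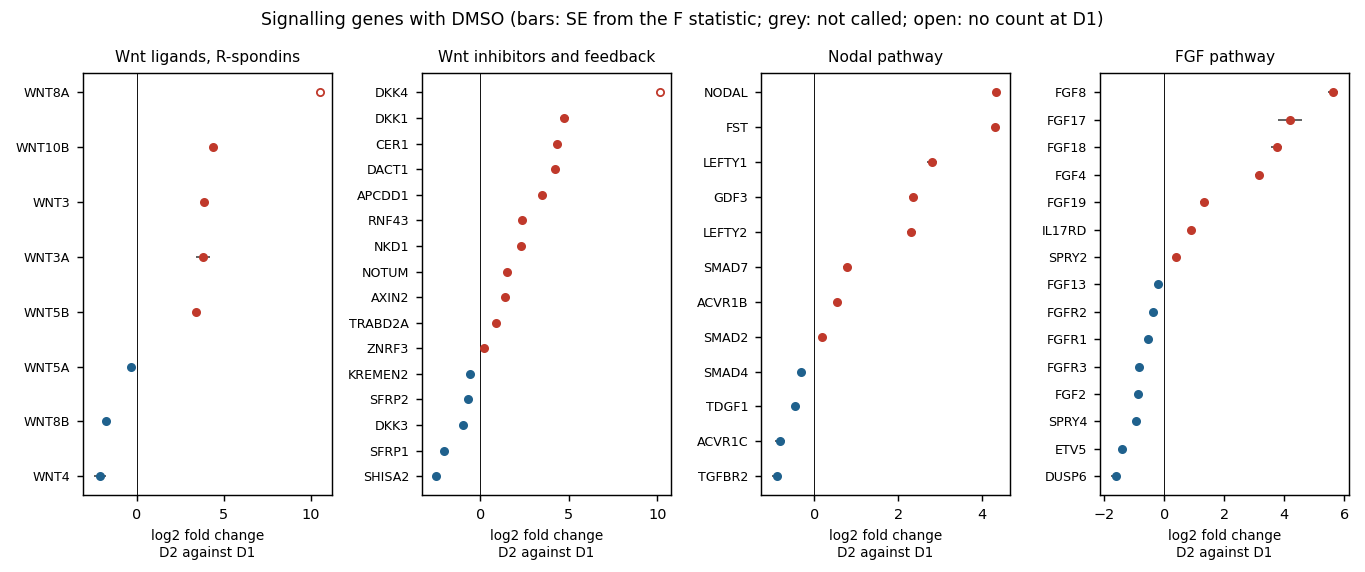
Log2 fold change of D2 against D1 with DMSO (horizontal axes) for Wnt ligands, Wnt inhibitors, Nodal pathway and FGF pathway genes; bars are the SE, and open points are genes with no count at D1, whose fitted value is no bound. Feedback genes such as AXIN2 and NKD1 lie right of 0 and DUSP6, ETV5 and SFRP1 left of it.

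Notch, hedgehog, retinoid and Hippo genes changed in both directions. Of 21 hedgehog and retinoid genes, 9 rose (42.9%) and 8 fell (38.1%), against 32.5% and 30.7% over all genes. LFNG, a glycosyltransferase that tunes Notch, had 31.2 and 29.4 CPM at D1 and 6.47 and 6.40 CPM at D2, a 4.70-fold fall. HES3 fell 2.24-fold. Of 23 Notch genes, 9 fell (39.1%) and 4 rose (17.4%). STRA6, the retinol importer, had 24.0 and 23.0 CPM at D1 and 46.6 and 49.3 CPM at D2, a 2.04-fold rise. DHRS3, a retinal reductase, fell 3.09-fold. All 3 GLI factors of the hedgehog pathway fell, by 0.63 for GLI1, 0.40 for GLI2 and 0.38 for GLI3 on the log2 scale. In the Hippo list 8 of 15 fell and 5 rose, or 3 without composition scaling. The YAP targets CTGF and CYR61 had 154 and 172 CPM at D1 and 35.2 and 32.7 CPM at D2, and 83.6 and 91.6 CPM at D1 and 29.8 and 30.4 CPM at D2. They fell 4.81-fold and 2.91-fold, while the genes of their regulators YAP1 and TEAD1 rose by 0.45 and 0.75.

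Epithelial and mesenchymal cadherin rose together. CDH1, the epithelial cadherin, had 374 and 364 CPM at D1 and 612 and 619 CPM at D2, a 1.67-fold rise (adjusted p = 1.07e-10). CDH2, the mesenchymal cadherin, had 33.4 and 31.3 CPM at D1 and 114 and 107 CPM at D2, a 3.41-fold rise (adjusted p = 4.64e-14). Both were higher in both D2 libraries. Of the EMT repressors, ZEB2 had 0.0761 and 0.153 CPM at D1 and 3.39 and 4.87 CPM at D2, a 35.4-fold rise. SNAI1 had 9.001 and 8.18 CPM at D1 and 12.2 and 12.3 CPM at D2, a 1.43-fold rise, and SNAI2 and TWIST1 were at most 0.585 CPM in each library. DSP, a desmosome plaque protein, rose 2.50-fold, and VIM rose 1.27-fold. FN1, fibronectin, had 205 and 183 CPM at D1 and 393 and 381 CPM at D2.

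Epithelial junction genes and matrix genes mostly fell. Of 36 keratin, claudin and desmosome genes, 23 fell and 6 rose (median log2 change -0.39). PKP1, a desmosome protein, CLDN4, a claudin, and TJP3, a tight junction scaffold, fell by 2.63, 1.56 and 1.59 on the log2 scale, and the largest rises were those of DSP and CDH1. Of 41 extracellular matrix genes, 26 fell and 10 rose, also with a median of -0.39. COL2A1, a fibrillar collagen, had 23.9 and 26.9 CPM at D1 and 6.69 and 6.64 CPM at D2, a 3.80-fold fall. HAS2, the enzyme that makes hyaluronan in the streak and heart, had 1.09 and 0.813 CPM at D1 and 19.6 and 19.8 CPM at D2, a 20.7-fold rise. VCAN, versican, which binds hyaluronan, had 842 and 664 CPM at D1 and 1677 and 1696 CPM at D2. The D2 libraries of HAS2 and VCAN were above both of D1. The collagen VI genes COL6A1 and COL6A2 rose 2.44-fold and 2.96-fold. Of 16 integrins, 12 fell and 1 rose. The one that rose was ITGB5, by 0.86, and ITGB1, the shared beta chain, fell by 0.45.

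Guidance and migration genes were rearranged. Of 50 ephrin, semaphorin, netrin and slit genes, 26 fell and 13 rose. SEMA3C, a secreted semaphorin, had 1.14 and 1.07 CPM at D1 and 19.5 and 21.4 CPM at D2, an 18.5-fold rise, and EPHA4, an ephrin receptor of mesoderm, had 2.97 and 2.77 CPM at D1 and 14.8 and 16.1 CPM at D2, a 5.37-fold rise. EFNB2 rose 3.26-fold and NTN1 3.01-fold. SEMA6D and NTN4 fell by 2.43 and 2.08. Among 18 receptors and adhesion genes of migrating mesendoderm, 9 rose (50%) and 6 fell (33.3%), against 32.5% and 30.7% over all genes. PCDH10, a protocadherin, had 14.6 and 11.5 CPM at D1 and 129 and 124 CPM at D2, and LPAR6, a lysophosphatidic acid receptor, had 1.17 and 0.940 CPM at D1 and 13.1 and 10.3 CPM at D2. They rose 9.70-fold and 11.02-fold. APELA, a peptide ligand of the apelin receptor that stem cells make, fell 3.68-fold, with 23.8 and 32.6 CPM at D1 and 7.45 and 7.84 CPM at D2, while the receptor gene APLNR rose 3.33-fold.

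Synaptic and axonal genes mostly fell, with large exceptions. Of 40 synaptic and axonal genes, 27 fell and 8 rose (median log2 change -0.56). NPTX1, a neuronal pentraxin, had 26.9 and 49.3 CPM at D1 and 0.737 and 0.779 CPM at D2. Its fall of 49.97-fold was the largest among genes with at least 1 CPM at D1 and no overlap between the times, and its D1 libraries were unequal. GRIA4, a glutamate receptor subunit, fell 6.67-fold, and NRXN2 5.77-fold. CNTNAP2, a neurexin family adhesion protein, went the opposite way, with 102 and 91.9 CPM at D1 and 1015 and 959 CPM at D2, a 10.2-fold rise. NEFL and SYT4 rose by 1.12 and 1.34. TUBB2B, a tubulin, had 225 and 211 CPM at D1 and 1028 and 1047 CPM at D2, a 4.76-fold rise.

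Glycolysis genes rose in a block. Of 25 tested, 21 rose, 3 fell and 1 did not pass (median log2 change 0.42). LDHA, which makes lactate, had 713 and 726 CPM at D1 and 1569 and 1643 CPM at D2, and SLC16A3, which exports it, had 46.8 and 45.2 CPM at D1 and 150.1 and 169 CPM at D2. They rose 2.23-fold and 3.47-fold. PFKFB3 and PFKFB4, which set the level of the main allosteric activator of the pathway, rose 3.10-fold and 3.36-fold. HK1, PFKM and MPC2 were the 3 that fell, while the related HK2 and PFKP rose by 0.84 and 0.38. PDK1, a kinase that inhibits pyruvate dehydrogenase, had 83.7 and 76.8 CPM at D1 and 658 and 649 CPM at D2. Its rise of 8.14-fold (adjusted p = 1.46e-17) was the largest of the citric acid cycle list by more than 2 log2 units, and its relative PDK2 fell 1.94-fold.

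Many genes of the hypoxia response, a list that also holds PDK1, rose as well. Of 24 tested, 15 rose and 6 fell (median log2 change 0.52). BNIP3, a mitophagy receptor, had 119 and 127 CPM at D1 and 427 and 445 CPM at D2, a 3.55-fold rise. EGLN1, an oxygen-sensing hydroxylase, and INSIG2 rose 2.54-fold and 2.62-fold. HIF1A itself had 217 and 213 CPM at D1 and 197 and 191 CPM at D2, a fall of 0.15 on the log2 scale, and NDRG1 fell by 1.56. Respiratory chain and ATP synthase subunits had small rises, with 51 of 77 higher and 3 lower (median 0.18), and 33 higher and 7 lower without composition scaling.

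Cholesterol synthesis genes fell. Of 25 tested, 20 fell, 1 rose and 4 did not pass (median log2 change -0.31). FDFT1, squalene synthase, had 391 and 366 CPM at D1 and 197 and 178 CPM at D2, a 2.02-fold fall. HMGCS1, an early step of the pathway, had 388 and 318 CPM at D1 and 191 and 180.5 CPM at D2, a 1.902-fold fall. Of 14 fatty acid synthesis genes, 2 were higher and 6 lower, with 1 lower without D1 replicate 1 or without D2 replicate 2 and 3 without D2 replicate 1. The shares of the fatty acid list were 14.3% higher and 42.9% lower, against 32.5% and 30.7% over all genes. FASN had a log2 change of 0.01 ± 0.08 (adjusted p = 0.88).

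Single amino acid transporters changed in both directions. Over 303 solute carrier genes tested, 104 rose (34.3%) and 93 fell (30.7%), near the 32.5% and 30.7% over all genes. SLC7A5, the importer of large neutral amino acids, had 137 and 114 CPM at D1 and 476 and 553 CPM at D2, a 4.10-fold rise, and its partner SLC3A2 rose 1.77-fold. SLC7A3, an importer of arginine and lysine, had 189 and 204 CPM at D1 and 70.7 and 69.0 CPM at D2, a 2.81-fold fall. Among the targets of the amino acid stress factor ATF4, ASNS and CHAC1 fell by 0.25 and 0.46 on the log2 scale. TRIB3 had a log2 change of -0.06 ± 0.09 (adjusted p = 0.618). ASNS and TRIB3 were chosen after their values were seen and do not stand for the list. Of 29 stress genes, 14 rose and 9 fell, or 5 fell without D2 replicate 1. The shares of the stress list, which also holds SLC7A5 and SLC7A3, were 48.3% higher and 31.0% lower, against 32.5% and 30.7% over all genes. Among 30 genes of insulin signalling and FOXO targets, 14 fell and 6 rose. PIK3R1, the regulatory subunit of PI3-kinase, had 11.1 and 10.8 CPM at D1 and 54.7 and 54.2 CPM at D2, a 4.97-fold rise. TXNIP, a glucose-responsive arrestin, fell 2.54-fold, with 135 and 159.5 CPM at D1 and 58.8 and 57.3 CPM at D2.

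Genes for making ribosomes and charging tRNAs rose. All 32 ribosome assembly genes tested were higher (median log2 change 0.52), or 30 without composition scaling, with none lower. Of 78 ribosomal protein genes, 69 rose, 0 fell and 9 did not pass (median 0.26), although many have processed copies that can share reads. Of 20 cytosolic tRNA synthetases, 14 rose and 0 fell, or 2 fell without composition scaling and 1 without D1 replicate 2. NCL, nucleolin, had 2111 and 1970.2 CPM at D1 and 2947 and 2861 CPM at D2.

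Replication genes mostly rose, and mitosis genes went both ways. The shares higher and lower were 70.8% and 2.08% for replication genes and 23.7% and 44.7% for mitosis genes. Over all genes they were 32.5% and 30.7%. Of 48 DNA replication genes, 34 rose and 1, GINS1, fell (median 0.20), with changes that stayed under 1 on the log2 scale. FEN1 and POLA1 led with 0.71 and 0.68. GINS1 lost the call without D1 replicate 1, D2 replicate 1 or D2 replicate 2, and 4 genes were lower without composition scaling. Of 38 mitosis genes, 17 fell, 9 rose and 12 did not pass, and the rises were 4 without composition scaling and 5 without D2 replicate 1. PTTG1 and BUB1B fell by 0.59 and 0.46, and CENPE rose by 0.82. Among regulators of the G1 phase, CCND1 had 194 and 171 CPM at D1 and 287 and 308 CPM at D2 and CDK4 rose 1.79-fold, while CCND3 and the inhibitor CDKN1C fell 2.33-fold and 2.23-fold. In the BCL2 family, 9 of 16 fell (56.25%) and 3 rose (18.75%), with BMF at -1.15 and BCL2L11 at 0.67 on the log2 scale.

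Single chromatin regulators changed in both directions. EZH2, the methyltransferase of Polycomb complex PRC2, had 25.2 and 23.2 CPM at D1 and 51.9 and 52.6 CPM at D2, a 2.16-fold rise, and EED and SUZ12 rose by 0.46 and 0.24. JARID2, an accessory subunit of the same complex, had 771 and 647 CPM at D1 and 266 and 264 CPM at D2, a 2.67-fold fall, and PHF19 and MTF2 fell by 0.91 and 0.37. In PRC1, PHC1 had 125 and 124 CPM at D1 and 40.2 and 43.4 CPM at D2 and CBX7 fell 2.30-fold. Over all 28 Polycomb genes 12 rose (42.9%) and 9 fell (32.1%), against 32.5% and 30.7% over all genes, with a median log2 change of -0.02. Of the DNA methyltransferases, DNMT3B had 2147 and 1917 CPM at D1 and 1187 and 1200.1 CPM at D2, a 1.70-fold fall, DNMT3A fell by 0.47 and DNMT1 rose by 0.36. TET1, which oxidises methylcytosine, rose by 0.35.

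The largest gains in CPM, a measure that favours long and abundant transcripts, are given here as a list without comparing genes. RNR2, a mitochondrial ribosomal RNA, had 5612 and 6112 CPM at D1 and 6788 and 9127 CPM at D2. Its rise lost the call without D2 replicate 2, in which it took 0.887% of counts. The list went on with ENO1 with 2036 and 2022 CPM at D1 and 2949 and 3066 CPM at D2, HSPA8, a constitutive chaperone, with 1568 and 1527 CPM at D1 and 2576 and 2453 CPM at D2, and then VCAN, CNTNAP2, LDHA, NCL, TUBB2B, GAPDH and GJA1. The largest losses were PODXL, DNMT3B, TRIM71, AASS, CD24, TKT, ACTB, DPPA4, JARID2 and USP9X. TRIM71, a stem cell RNA-binding protein, had 1481 and 1384 CPM at D1 and 679.7 and 669 CPM at D2, and AASS, a lysine-degrading enzyme, had 1099 and 1046 CPM at D1 and 339.6 and 340.0 CPM at D2. ACTB fell by 0.34 and GAPDH rose by 0.32, so neither reference gene was constant. Of 15 common reference genes, 8 were higher and 2 lower, or 4 lower without composition scaling.

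The same contrast in the 4 libraries that had seen TCDD shares no library with the DMSO contrast. There 11269 genes changed (65.3%). Of the 690 genes at least 2-fold higher with DMSO, 671 had the same sign and 607 were also called higher with TCDD, and of the 1648 lower genes 1644 and 1534. Across genes, which are not independent replicates, the log2 changes correlated at r = 0.921. The change itself differed between the exposures for 133 genes (0.770%), 68 of them with the larger change under DMSO, and for 49 genes among those at least 2-fold changed with DMSO. This count ranged from 30 without D2 DMSO replicate 1 to 285 without D1 TCDD replicate 1, so single libraries decide it. The streak examples NODAL, GSC and FST had log2 changes of 4.43, 4.17 and 4.54 with TCDD beside 4.32, 5.19 and 4.30 with DMSO. MIXL1 changed by 7.68 with DMSO and 6.58 with TCDD, and SOX2 by -0.48 and 0.26.

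**Figure D5:**
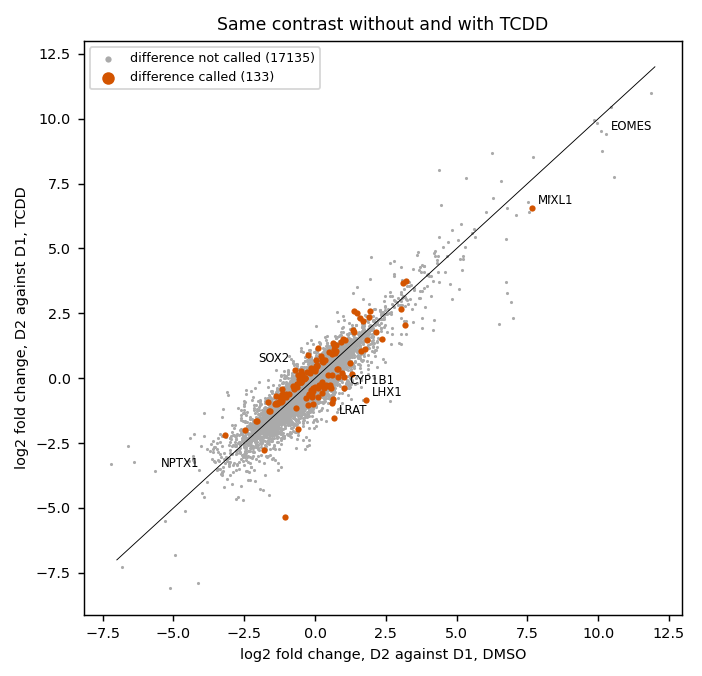
Log2 fold change of D2 against D1 with DMSO (horizontal axis) and after TCDD (vertical axis), 1 point per gene, with the line of equal change. Orange marks the 133 genes whose change differed between the exposures by an adjusted p under 0.05; most points lie along the line (r = 0.921 across genes).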

How the data were processed

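RNA-seq was deposited as 8 libraries of raw read counts per gene symbol. The authors trimmed reads with cutadapt 1.9.1, aligned them with STAR and counted them with featureCounts 1.5.1 on hg19, per the submitters' processing notes. The annotation and the strand setting were not given in the sources used here. Therefore overlapping and antisense genes, and near-identical copies, are uncertain. Of 27317 symbols, 4199 had no count and filterByExpr removed 10049, which left 17268. Groups came from titles, replicates from the numbers there. The deposited counts were fitted in edgeR 4.0.16 (R 4.3.3, limma 3.58.1) with TMM factors (0.972 to 1.04 in DMSO libraries), 4 group means over all 8 libraries for a shared spread, and glmQLFit and glmQLFTest, with Benjamini-Hochberg adjustment. The biological coefficient of variation was 3.86%. Replicates differed beyond sampling noise (chi-square per gene 3.86 at D1 and 3.21 at D2).

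Counts were also simulated for this comparison over 17268 genes, with 66 or 67 genes changed at each size and the same spread given to every gene. The test recovered 41.8% of genes changed 1.25-fold, 70.1% at 1.5-fold and 86.4% at 2-fold, with 9 false calls. In the data 63.2% of genes were called and the spread differs by gene, so these values do not carry over to the 10913 calls. Alternatives were other size factors, DESeq2 1.42.0, other filters, the 4 DMSO libraries alone, a replicate block and leaving out each library. Genes named were the 15 largest rises and falls and 10 largest gains and losses in CPM (called, at least 1 CPM, no overlap, with provisional, antisense, open reading frame and most small or long non-coding RNA symbols passed over), up to 4 per list, and members of regulator and signalling lists. Others were chosen after their values were seen, among them CALCR, HK2, PFKP, HIF1A, FASN, SLC3A2, ASNS, TRIB3, YAP1, TEAD1, EFNB2, NTN1, APLNR, COL6A1, COL6A2, CDK4, EED, SUZ12, DNMT1 and TET1. Some named genes are not reported here. The members and lists were chosen with earlier results of these data known. Promoter sequences are from RefSeq on GRCh38.p14, and no hg19 genome was used here.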

Additional observations from a re-analysis of the deposited data

Results flagged for a closer look

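For 31 named genes the change from D1 to D2 differed between DMSO and TCDD by the edgeR interaction test with an adjusted p under 0.05, of which 30 are given here. The values are the log2 change with DMSO minus that with TCDD, and 0.770% of all genes passed the same test. The difference was largest for LHX1, an organiser factor, at 2.64 (1.81 with DMSO and -0.83 with TCDD, adjusted p = 0.0261). It was 2.20 for LRAT, 1.55 for TIPARP and 1.41 for CYP1B1, the last 2 of which are known targets of the dioxin receptor AHR. TIPARP changed by 0.60 with DMSO and -0.95 with TCDD, and CYP1B1 by 1.03 and -0.38. TIPARP has an antisense neighbour, and without a stated strand setting its value is uncertain.

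Genes of the streak and of signalling with a larger rise under DMSO were MIXL1 (1.10), FGF4 (1.09), CYP26A1 (0.97) and GDF3 (0.82). RNR2 differed by 0.73, FGF13 by 0.38, PDK1 by 0.37, BNIP3 by 0.36 and SPRED1 by 0.30. PDK1 and BNIP3 rose at least 3.55-fold with DMSO and by 2.65 and 1.47 on the log2 scale with TCDD.

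A negative value is a lower change with DMSO. The differences were -0.75 for HES3, -0.75 for SOX2, -0.69 for PRDM14, -0.36 for CD24, -0.34 for TERF1 and -0.31 for PODXL. In Wnt genes the differences were -0.55 for FZD7, -0.40 for SFRP1 and -0.38 for AXIN2. Other receptors and regulators were FGFR2 (-0.38), JAG1 (-0.38) and GLI2 (-0.37). The remainder were VIM (-0.37), COL1A1 (-0.34), NES (-0.32), PDPN (-0.31) and GJA1 (-0.29). AXIN2, VIM and GJA1 rose under DMSO, and their rise was smaller there than with TCDD. The number of genes passing this test was 30 without D2 DMSO replicate 1 and 285 without D1 TCDD replicate 1.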

How the results depend on the processing

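The counts of genes higher and lower stayed within 1.5 times of 5617 and 5296 under every setting tried. The shift towards lower calls was 4381 higher and 6419 lower without composition scaling and 4359 and 6444 with upper quartile factors, with the median change of all genes moved by -0.0862 and -0.0881 on the log2 scale. DESeq2 called 4758 and 4572. Without single DMSO libraries the counts ran from 4718 to 5021 higher and from 4392 to 4698 lower. The counts of genes past 2-fold stayed within the same bound. Of 420 named genes, 357 were called, 318 of them under every alternative and 320 in every fit without 1 DMSO library, and none reversed. The number of genes whose change differed between DMSO and TCDD, 133, ranged from 30 to 285 when single libraries were left out, and was 127 with DESeq2. Replicate numbers are shared in the labels, but 2 pairs cannot show that they pair the samples, and deviations of same-numbered DMSO libraries correlated at 0.0337 between D1 and D2, and with TCDD at 0.247 at D1 and 0.150 at D2. With the replicate number as a block, 5604 genes were higher and 5297 lower, 159 differed between DMSO and TCDD, and 1 named gene, ZFP42, lost its call. WNT16 and WNT7B, under 1 CPM in each DMSO library, lost their calls in several of these fits. Causes of these shifts were not tested.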

Other observations

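Some gene families, grouped by symbol after earlier results were known, differed in their shares from all genes, of which 32.5% rose and 30.7% fell. Of 79 potassium channel genes, 39 fell (49.4%), 9 rose (11.4%) and 31 did not pass (median log2 change -0.47). KCNA5, a voltage-gated channel, was an exception with 0.279 and 0.356 CPM at D1 and 12.6 and 11.4 CPM at D2, a 37.3-fold rise, and KCNG1, a modifier subunit, had 16.2 and 18.0 CPM at D1 and 79.4 and 83.0 CPM at D2. KCNMA1, the large-conductance calcium-activated channel, had 6.69 and 6.63 CPM at D1 and 2.68 and 2.46 CPM at D2, a 2.60-fold fall. Of 68 G protein-coupled receptors with GPR or ADGR symbols, 32 fell (47.1%) and 12 rose (17.6%), or 7 rose without composition scaling. GPR176 had 97.9 and 121 CPM at D1 and 28.4 and 27.4 CPM at D2. These examples were chosen after their values were seen.

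Host genes of small nucleolar RNAs mostly rose, 15 of 19 (78.9%), with 1 lower (5.26%), against 32.5% and 30.7% over all genes. SNHG7 had 25.3 and 23.8 CPM at D1 and 80.8 and 87.3 CPM at D2, a 3.43-fold rise, and SNHG12 rose 2.28-fold, whereas SNHG18 fell by 0.74 on the log2 scale. Of 42 proteasome genes, 27 rose and 2 fell, and of 81 mitochondrial ribosomal protein genes 58 rose and 1 fell, or 7 fell without composition scaling. Of 511 ZNF genes, 196 rose (38.4%) and 74 fell (14.5%), but 112 fell without composition scaling and 114 with upper quartile factors. Of 261 long intergenic non-coding RNAs, 97 were lower (37.2%) and 49 higher (18.8%), against 30.7% and 32.5% over all genes. LINC00599 had 121 and 118 CPM at D1 and 12.9 and 15.8 CPM at D2, and LINC01124 had 0.127 and 0.0254 CPM at D1 and 15.97 and 16.6 CPM at D2. Genes that RefSeq calls lncRNA made up 12.7% (85) of the matched genes at least 2-fold higher and 9.57% (152) of those at least 2-fold lower, against 6.73% of matched genes tested.

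The 15 largest falls included 3 genes known for differentiated muscle, picked out after the ranking was seen. MYH2, a myosin heavy chain, had 4.21 and 3.61 CPM at D1 and 0.218 and 0.170 CPM at D2, SMYD1, a myosin methyltransferase, had 1.14 and 1.14 CPM at D1 and 0.0819 and 0.0487 CPM at D2, and MB, myoglobin, had 1.24 and 1.45 CPM at D1 and 0.164 and 0.0973 CPM at D2. All 3 were lower in both D2 libraries. The inflammatory chemokine CXCL1 had 1.01 and 1.45 CPM at D1 and 0.0819 and 0.0973 CPM at D2, a 13.2-fold fall, and PTGFR, the prostaglandin F receptor, had 1.34 and 1.07 CPM at D1 and 0.0819 and 0.0243 CPM at D2.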
